A study of Mus musculus with 23 samples.

Results

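Interferon-stimulated genes are the genes that cells switch on when interferon reaches them. A list of 40 such genes was read across sorted mouse bone marrow progenitors on 23 Affymetrix arrays in 9 groups. A member was read from a probe set annotated with its symbol alone. Where a gene had several of these, the brightest on average was to be used, but each measured member had 1. This gave levels for 35 of the 40, among 19937 genes measured in the same way. Isg15, Gbp2, Ifi47 and Igtp are represented only by probe sets that also carry another gene's symbol, Ifi44 is not named on its own probe set, and none of these 5 is read here. Levels are log2 values with a floor of 3, at which Mx1 stood on 3 arrays. No other member reached the floor.

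Double-stranded RNA, a by-product of many viral infections, is sensed by the receptor TLR3 and by the cytoplasmic helicases RIG-I (Ddx58) and MDA5 (Ifih1), and these lead to secretion of type I interferon. Interferon binds its receptor, the kinases JAK1 and TYK2 pass the signal on, and a complex that contains STAT2 and IRF9 binds a short element in the promoters of many interferon-stimulated genes. Interferon gamma acts through a separate receptor (Ifngr1 and Ifngr2) and leads to binding at another element. Poly I:C is a synthetic double-stranded RNA that starts this response in mice, and blood stem and progenitor cells in the marrow respond to it directly.

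Poly I:C was also the tool by which the gene under study was deleted. All donor mice carried floxed Cebpa (Cebpa f/f), the gene of the myeloid transcription factor C/EBPα, and all received 3 injections of poly I:C. Knockouts carried the Mx1-Cre transgene, in which an interferon-responsive promoter drives Cre recombinase, and controls did not. In 11 arrays the cells were sorted 5 days after the injections with no culture. These were common myeloid progenitors (CMPs, Lin- c-Kit+ Sca-1- CD34+ and sorted as negative for Fc gamma receptors) from controls (n = 4) and knockouts (n = 4), and granulocyte-macrophage progenitors (GMPs) from controls (n = 3). The other 12 arrays were of cells descended from marrow stem and progenitor cells (Lin- Sca-1+ c-Kit+, KSLs) of such donors that had been cultured with stem cell factor, thrombopoietin and IL-3, infected with a retrovirus for the leukaemia fusion MLL-AF9 and GFP, and transplanted with radioprotective marrow into lethally irradiated congenic mice. They comprised leukaemic GMPs (L-GMPs) from primary (n = 2) and secondary (n = 2) recipients of control cells, and L-GMPs from 1 primary knockout recipient and from secondary recipients of its marrow (n = 2). GFP-positive KSLs (n = 2) and CMPs (n = 3) came from knockout recipients that had no leukaemia. The knockout leukaemia developed in a recipient given vectors that express IL-3 and GM-CSF, so all 3 knockout L-GMP arrays trace back to a single leukaemia. KSL and CMP arrays 1 came from the same recipient and arrays 2 from another. No mouse was left without poly I:C, so the comparison over days since poly I:C has no untreated arm. Sorting 5 days after the injections, absence of MLL-AF9, no transplantation and any difference between array batches all lie on the same side of it and cannot be told apart. Donors are mostly not stated, and p-values then cover just the scatter among these samples, which may be technical.

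Cebpa stood between 7.19 and 7.96 on the 11 control arrays and between 4.33 and 5.55 on the 12 knockout arrays. Of the sort-gate genes Kit, Cd34, Fcgr3 and Fcgr2b were measured and Ly6a (Sca-1) was not. Fcgr3 averaged 7.90 ± 0.46 (SD, n = 4) in control CMPs and 9.69 ± 0.08 (SD, n = 3) in control GMPs. Replicates of the control L-GMPs and of the MLL-AF9 KSLs and CMPs scattered more than those taken after poly I:C: the median absolute residual of an array was 0.0942 to 0.176 in the former and 0.0683 to 0.0812 in the latter. Differences were tested with limma on all 23 arrays, with p adjusted over all genes, and a member is said to have risen or fallen where adjusted p was below 0.05. The cells are bulk samples, in which fewer cells of a type and less RNA per cell cannot be told apart.

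The promoters show what the members share beyond their names. Of the 40 genes, 31 have an entry in the RefSeq promoter table (GRCm38.p6, windows of 300 bases, 250 before and 50 after each start site). The core of the interferon-stimulated response element, GAAANNGAA, was searched on both strands and stood in a window of 19 of these 31 genes (61.3%) and of 9.76% of all 27025 genes in the table. The core of the gamma-activated site, TTCNNNGAA, which reads the same on both strands, stood in 7 of the 31 (22.6%) and in 9.55% of all genes. A match is a match of letters and was not tested as a binding site. Stretches of 60 bases before the start site are given for the members that changed between the experiments and held the first motif there, and for Bst2, which changed in both comparisons of knockout CMPs; they run 5′ to 3′ on the gene's strand, with matches in capitals.
Gbp3: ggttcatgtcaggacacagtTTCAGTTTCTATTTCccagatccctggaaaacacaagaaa
Irgm1: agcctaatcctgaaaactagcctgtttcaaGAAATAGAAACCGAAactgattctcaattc
Trim25: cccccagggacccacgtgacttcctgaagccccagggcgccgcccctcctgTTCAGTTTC
Ifit3: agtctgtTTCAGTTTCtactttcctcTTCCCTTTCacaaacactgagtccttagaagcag
Stat2: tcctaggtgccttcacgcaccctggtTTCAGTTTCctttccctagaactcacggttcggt
Bst2: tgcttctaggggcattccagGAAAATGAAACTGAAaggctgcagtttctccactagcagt

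These stretches lie at chr3:142559980-142560039 (Gbp3, plus strand), chr11:48871421-48871480 (Irgm1, minus), chr11:88999343-88999402 (Trim25, plus), chr19:34583401-34583460 (Ifit3, plus), chr10:128270251-128270310 (Stat2, plus) and chr8:71537563-71537622 (Bst2, minus). In Gbp3, Irgm1 and Bst2 the runs of capitals hold overlapping matches. In Bst2 a match to the gamma-activated core overlaps them, and in none of the other 5 windows shown was that core found. Counted from the start site, the match nearest to it ends at position −1 in Trim25 and at −213 in Stat2. Ifit2, which rose most of all members between the experiments, held no match to the first motif in either of its windows. No window of Mx2, Oas2 or Parp14 was in the table, and those of Ifi35 and Psmb8 held the gamma-activated core alone.

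Members differed between groups more than the typical gene. The difference between a gene's highest and lowest group mean had a median of 1.02 over the members and of 0.69 over all genes, and it was at least 1 for 18 of 35 members and for 28.9% of all genes. The spread within groups was larger too, with a median residual SD of 0.32 in the members and 0.20 over all genes. The widest ranges belonged to Cxcl10 (3.79), a chemokine that draws activated T cells, Samd9l (3.20), a restraint on translation and on growth of blood cells, and Rtp4 (2.49), a chaperone-like protein that also limits viral replication. Secondary control L-GMPs held the lowest group mean for 15 of 35 members and the highest for none. Knockout CMPs and the primary knockout L-GMPs each held the highest for 6. The same count over all genes was not made. Secondary control L-GMPs had 2 arrays and primary knockout L-GMPs 1, and means of so few arrays reach extremes more readily.

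**Figure D1:**
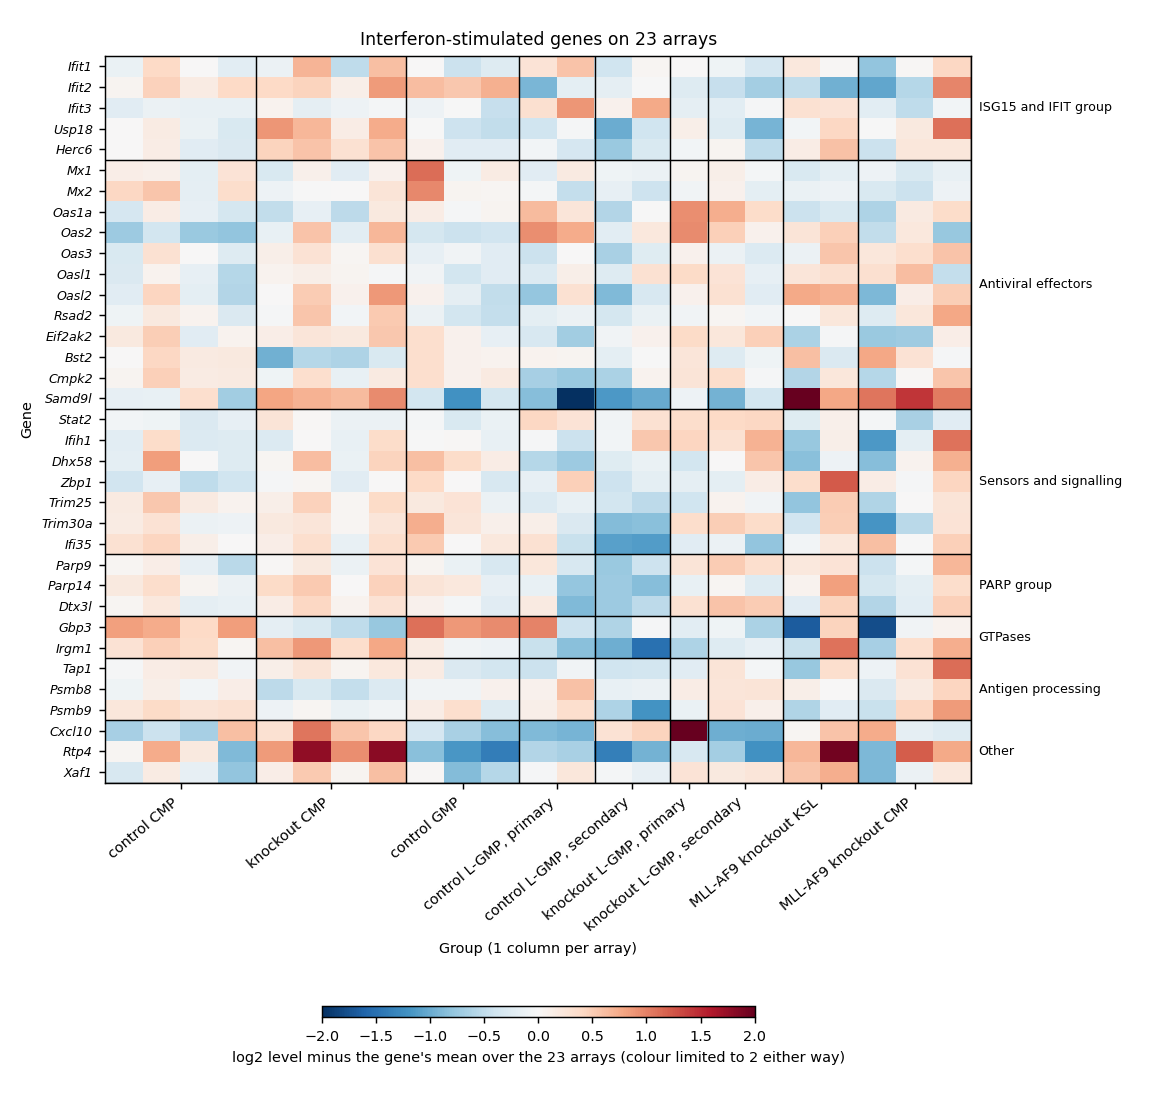
Heat map of the 35 measured members (rows, by role) on the 23 arrays (columns, by group), as log2 level minus the gene's mean over all arrays, with red higher and blue lower. Rtp4 and Samd9l are high in knockout CMPs and in MLL-AF9 knockout KSLs, Cxcl10 stands out on the single primary knockout L-GMP array, and secondary control L-GMPs hold the lowest group mean in 15 rows.

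The first comparison set the 3 groups sorted 5 days after poly I:C against the 6 transplanted groups. Members were not uniformly higher after poly I:C: 7 of 35 rose, 4 fell and 24 did not pass the test. Over all genes 23.3% were higher and 18.9% lower, so the members' shares were close to the background. The median difference was 0.11 over the members and 0.00 over all genes. No member separated the 11 arrays from the 12 in either direction, against 0.587% of all genes higher and 0.11% lower. The differences that passed ranged from 0.24 to 0.85 in size, and 31 of 35 members differed by less than 0.5 on the log2 scale.

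Among the members named for ISG15 and the IFIT proteins, which bind foreign RNA or are conjugated to proteins, Ifit2 rose and Ifit3 fell. Ifit2 stood at 5.67, 6.08, 5.77 and 6.01 in control CMPs, at 6.02, 6.06, 5.74 and 6.46 in knockout CMPs and at 6.24, 6.16 and 6.32 in GMPs. In transplanted cells it was 4.70 and 5.42 in primary and 5.44 and 5.61 in secondary control L-GMPs, 5.36 in primary and 5.15 and 4.93 in secondary knockout L-GMPs, 5.13 and 4.65 in KSLs and 4.57, 5.05 and 6.59 in MLL-AF9 CMPs. All transplanted arrays lay below all poly I:C arrays but for MLL-AF9 CMP array 3, which was the highest of the 23. The difference was 0.85 ± 0.19 (SE), or 1.80-fold (limma adjusted p = 0.00253), and it passed with any 1 array left out. Ifit3 lay near the floor, with group averages of 3.95 after poly I:C and 4.21 in transplanted cells, a difference of −0.27 ± 0.09 (limma adjusted p = 0.0264). The control L-GMPs stood at 4.41 and 4.97 in primary and 4.17 and 4.84 in secondary recipients, and the KSLs at 4.39 and 4.36. All of these lay above every poly I:C array, the highest of which was 4.15, and the other transplanted arrays lay at 3.58 to 4.06. The call was lost in 2 of 23 refits that each left out 1 array, with adjusted p up to 0.064. Ifit1, Usp18, which removes ISG15 from proteins, and the ligase Herc6 did not pass.

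Both measured GTPases other than Mx1 and Mx2 rose, Irgm1 by 0.69 ± 0.18 (limma adjusted p = 0.00705) and Gbp3 by 0.71 ± 0.27 (limma adjusted p = 0.0428). Both belong to families that attack membranes around intracellular pathogens, and Irgm1 is also needed for stem cell maintenance in mice. Irgm1 stood at 6.87 to 7.84 on the 11 poly I:C arrays, against 5.47 to 6.52 in control L-GMPs and 6.35 to 6.81 in knockout L-GMPs. Cells without leukaemia reached the poly I:C range on some arrays, with 6.52 and 8.05 in KSLs and 6.30, 7.31 and 7.69 in MLL-AF9 CMPs. The call for Gbp3 was lost in 13 of 23 refits that each left out 1 array, with adjusted p up to 0.0842.

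Of 12 antiviral effectors, Mx2 rose and Oas2 fell. Mx2, a dynamin-like GTPase, was low throughout and averaged 4.11 after poly I:C and 3.71 in transplanted cells, a difference of 0.40 ± 0.12 (limma adjusted p = 0.0126). Oas2 makes the 2′-5′ oligoadenylates that activate RNase L. It averaged 5.25 after poly I:C and 5.87 in transplanted cells, a difference of −0.62 ± 0.13 (limma adjusted p = 0.0019). It stood at 4.74 to 5.16 in control CMPs, at 5.09 to 5.18 in GMPs and at 5.32 to 6.19 in knockout CMPs. In transplanted cells it was 5.32 to 6.46 in control L-GMPs, 5.61 to 6.47 in knockout L-GMPs, 5.78 and 6.01 in KSLs and 4.77 to 5.73 in MLL-AF9 CMPs. Knockout CMPs thus lay among the transplanted arrays. Against MLL-AF9 knockout CMPs alone the difference had the opposite sign, 0.57 ± 0.24, and did not pass (limma adjusted p = 0.198). Of 7 sensors and signalling proteins, Ifi35 (0.44 ± 0.12) and Trim25 (0.42 ± 0.14), the ligase that helps to activate RIG-I, rose. Stat2, a transcription factor of type I signalling, fell by 0.24, a call lost in 3 of 23 refits with 1 array left out (limma adjusted p up to 0.0599). Parp14 rose by 0.38 among the 3 members that handle ADP-ribose, and Psmb8, a subunit of the immunoproteasome, fell by 0.26, while Psmb9 and the peptide transporter Tap1 did not pass. The limma adjusted p of these 5 lay between 0.00775 and 0.0262.

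**Figure D2:**
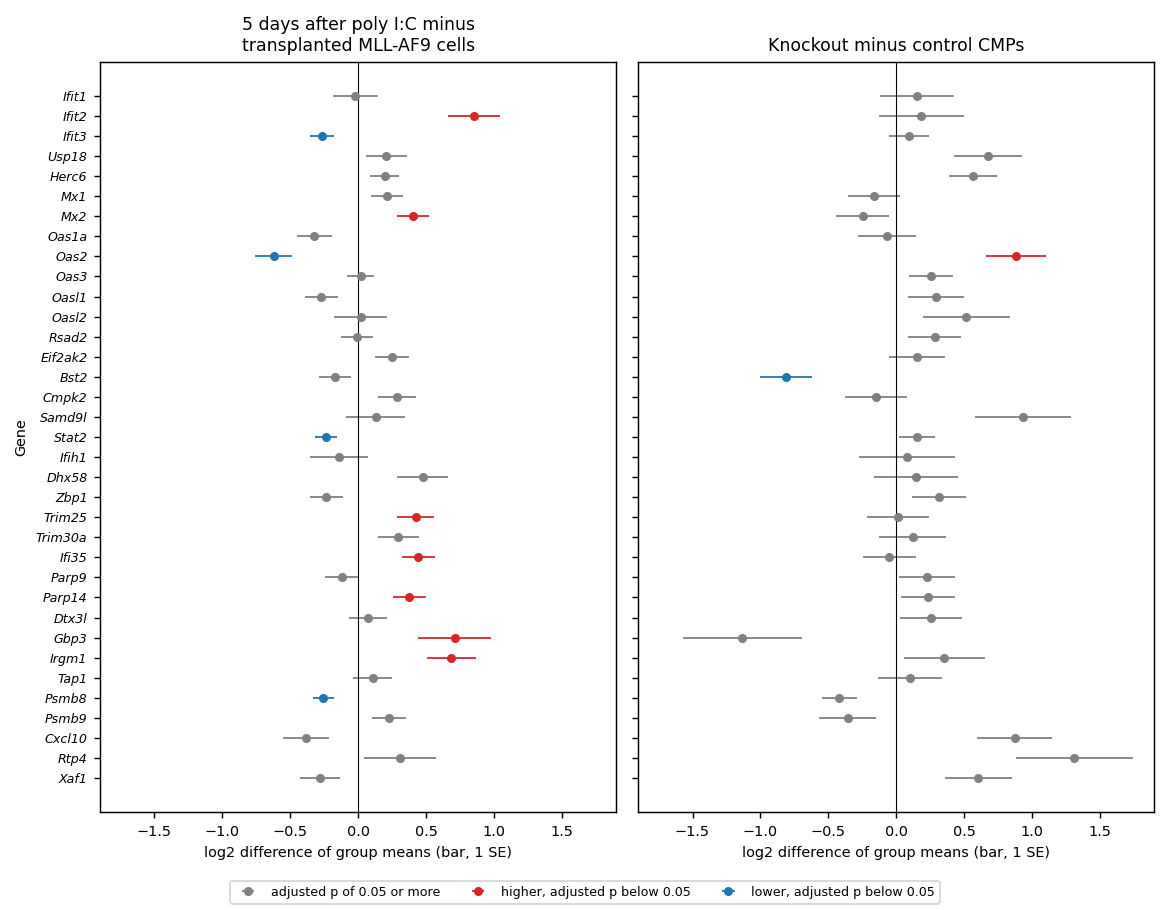
Differences of group means on the log2 scale (horizontal axis, bars of 1 SE) for the 35 members, for arrays taken 5 days after poly I:C minus transplanted MLL-AF9 cells (left) and knockout minus control CMPs (right). Red and blue points passed the limma test; in the left panel 7 lie to the right and 4 to the left, and in the right panel Oas2 and Bst2 passed while Rtp4, at 1.31, and Gbp3, at −1.13, did not.

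Leaving out MLL-AF9 CMP array 3 moved the count to 17 members, 12 higher and 5 lower. The other single arrays left out gave 9 to 14. The share of all genes that passed in these refits is not given, so these counts alone do not tell a change common to all genes apart. In these contrasts of unlike cells, the sort-gate genes Cd34 and Kit were higher and Fcgr2b lower after poly I:C, 3 of 6 plasmacytoid dendritic cell markers were lower (Siglech 4.81 against 5.30), and of 9 monocyte and macrophage markers 2 were higher and 2 lower. Their part in the members' differences was not tested.

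Genes around the members were read in the same contrast. Of 21 measured receptors and signalling genes upstream, 5 rose and 3 fell. Cgas, the sensor of cytoplasmic DNA, rose most, by 1.13 ± 0.16 (limma adjusted p = 6.01e-05), while the poly I:C receptor Tlr3 rose by 0.32 and Jak1 fell by 0.41. Ifnb1, which encodes interferon beta, lay near the floor in both, at 3.19 and 3.19. Of 32 further interferon-induced genes 10 rose and 6 fell. Ifitm3, a membrane protein that blocks viral entry, averaged 10.5 after poly I:C and 8.01 in transplanted cells, a rise of 2.46 ± 0.26 (limma adjusted p = 6.37e-06), and Ifitm1 rose by 1.91. The transplanted groups were unlike each other: Ifitm3 averaged 9.84 in KSLs and 10.3 in MLL-AF9 CMPs, and 6.36 to 7.56 in the 4 L-GMP groups. Within the knockout transplants, L-GMPs were lower than KSLs and CMPs by 3.06 ± 0.46 for Ifitm3 and by 3.62 ± 0.51 for Ifitm1 (limma adjusted p = 0.000262 and 0.000129).

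The closest match across the experiments had the same genotype and the same labelled cell type: knockout CMPs after poly I:C against MLL-AF9 knockout CMPs. The gate genes still differed: Cd34 averaged 10.2 and 8.40 and Fcgr3 7.96 and 5.48, both higher after poly I:C (limma adjusted p = 0.00037 and 0.0277), while Kit and Fcgr2b did not pass. None of 35 members rose (3.36% of all genes did) and 1 fell (1.51% of all genes did). Bst2, or tetherin, which holds budding viruses on the cell surface, stood at 7.13, 7.52, 7.46 and 7.77 in knockout CMPs and at 8.85, 8.38 and 8.06 in MLL-AF9 knockout CMPs. The 7 arrays did not overlap, and the difference was −0.96 ± 0.21 (limma adjusted p = 0.015). Without MLL-AF9 CMP array 1 it was −0.75 with adjusted p = 0.066, and in a fit of these 7 arrays alone adjusted p was 0.0951. Without MLL-AF9 CMP array 1 or array 3 the count of members was 2 or 4, and the share of all genes called in these refits is not given. At an unadjusted p below 0.05 there were 8 members, against 19.4% of all genes. Of 5 granulocyte-monocyte progenitor markers 3 were higher in the poly I:C cells. The part of these and of the gate genes was not tested. The largest differences that did not pass were Rtp4 (0.98) and Eif2ak2 (0.72), the kinase PKR that stops translation on sensing double-stranded RNA. Besides Bst2, arrays did not overlap for Samd9l, lower after poly I:C (−0.41), and for Mx2 (0.32) and Herc6 (0.47), both higher. None of these passed, and the share of all genes without overlap was not counted for this comparison.

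Control GMPs against control L-GMPs compared normal with leukaemic cells of the same Cebpa genotype, both labelled as GMPs. The cells still differed: 2 of 4 sort-gate genes were higher in normal GMPs, and of 7 lymphocyte markers 1 was higher and 4 lower. Of 9 monocyte and macrophage markers 2 were higher and 1 lower. What part these differences had in the members' changes was not tested. Here 5 of 35 members rose in normal GMPs and 2 fell, where 14.7% of all genes were higher and 10.6% lower. Irgm1 (0.94 ± 0.32), Ifi35 (0.83 ± 0.21), Trim30a (0.82 ± 0.27), Parp14 (0.73 ± 0.21) and Mx2 (0.63 ± 0.21) were higher, with limma adjusted p between 0.0108 and 0.0438. Ifi35 stood at 7.09, 6.58 and 6.77 in GMPs, at 6.88 and 6.12 in primary and at 5.48 and 5.45 in secondary L-GMPs. So primary array 1 lay within the GMP range and the secondary arrays lay more than 1 log2 unit under it. Oas2 was lower in GMPs by 0.81 ± 0.24 and Ifit3 by 0.71 ± 0.16 (limma adjusted p = 0.0224 and 0.00547), with no overlap of arrays for either. Among members higher in GMPs, arrays did not overlap for Irgm1, Mx2, Ifit2, Dhx58, Trim25 and Cmpk2, of which only Irgm1 and Mx2 passed. The share of all genes without overlap was not counted for this comparison. In a limma fit of these 7 arrays alone 5 members passed: Irgm1, Trim30a and Oas2 of those that had passed, and also Ifit2 and Dhx58 (adjusted p = 0.0328 and 0.0247). Ifi35, Parp14, Ifit3 and Mx2 did not pass there, with adjusted p from 0.0581 to 0.161. The count of members depended on the arrays kept: it was 1 without GMP array 1 and 4 without GMP array 2. The share of all genes called in these refits is not given, so this is not read as a trait of the members. GMP array 1 was the highest GMP array for 27 of 35 members and also had the most monocyte and macrophage signal, with that list's mean deviation at 2.09 against 1.19 and 1.26. The part of that signal in these changes was not tested. The upstream genes Cgas, Sting1 and Ikbke rose in GMPs too (3 of 21, none lower), and of the further interferon-induced genes 8 of 32 rose, led by Ifitm3 at 3.57 ± 0.46, and Sp100 fell.

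Knockout and control CMPs were compared 5 days after poly I:C, where all mice received the same injections. Knockouts also carried the Mx1-Cre transgene and controls did not, so loss of C/EBPα and the transgene cannot be told apart. Among 35 members 1 rose and 1 fell, beside 2.27% and 2.64% of all genes. Oas2 stood at 4.80, 5.16, 4.77 and 4.74 in control and at 5.38, 6.10, 5.32 and 6.19 in knockout CMPs. The groups did not overlap, and the rise was 0.88 ± 0.22, or 1.84-fold (limma adjusted p = 0.0301). Bst2 stood at 8.09, 8.50, 8.26 and 8.28 in control and at 7.13, 7.52, 7.46 and 7.77 in knockout CMPs. Again no arrays overlapped, and the fall was 0.81 ± 0.19, or 1.76-fold (limma adjusted p = 0.0194). With 1 of the 8 arrays left out either 0 or 1 member passed, and the share of all genes called in these refits is not given. The limma adjusted p ranged from 0.023 to 0.11 for Oas2 and from 0.0184 to 0.0822 for Bst2.

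More members than these separated the arrays, but their shares were close to those of all genes. Knockout arrays all lay above control arrays for 4 members (9.86% of all genes did so) and all lay below them for 4 (11.3% did so). Besides Oas2 the higher ones were Rtp4, Samd9l and Herc6. Rtp4 stood at 5.89, 6.60, 6.04 and 4.97 in control and 6.70, 7.62, 6.77 and 7.66 in knockout CMPs, a difference of 1.31 ± 0.43 (limma adjusted p = 0.108). Samd9l stood at 6.94, 6.96, 7.44 and 6.42 in control and at 7.90, 7.81, 7.74 and 8.05 in knockout CMPs, a difference of 0.93 ± 0.35 (limma adjusted p = 0.174). Besides Bst2 the lower ones were Gbp3 and the immunoproteasome subunits Psmb8 and Psmb9. Gbp3 stood at 7.63, 7.54, 7.19 and 7.63 in control and 6.62, 6.50, 6.30 and 6.04 in knockout CMPs, a difference of −1.13 ± 0.44 (limma adjusted p = 0.19). Psmb8 differed by −0.42 and Psmb9 by −0.36.

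The SE in that fit is shared with the noisier transplanted arrays. When limma was fitted to the 8 CMP arrays alone, 4 members passed as higher (7.42% of all genes) and 4 as lower (8.73%). The higher ones were Samd9l (adjusted p = 0.0211), Oas2, Usp18 (0.68, adjusted p = 0.0401) and Herc6 (0.56, adjusted p = 0.0159). The lower ones were Gbp3 (adjusted p = 0.00386), Psmb9, Bst2 and Psmb8. In neither fit did Ifit1, Ifit2, Ifit3, Mx1, Mx2 or Rsad2 pass, and these 6 differed by at most 0.28 in size.

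**Figure D3:**
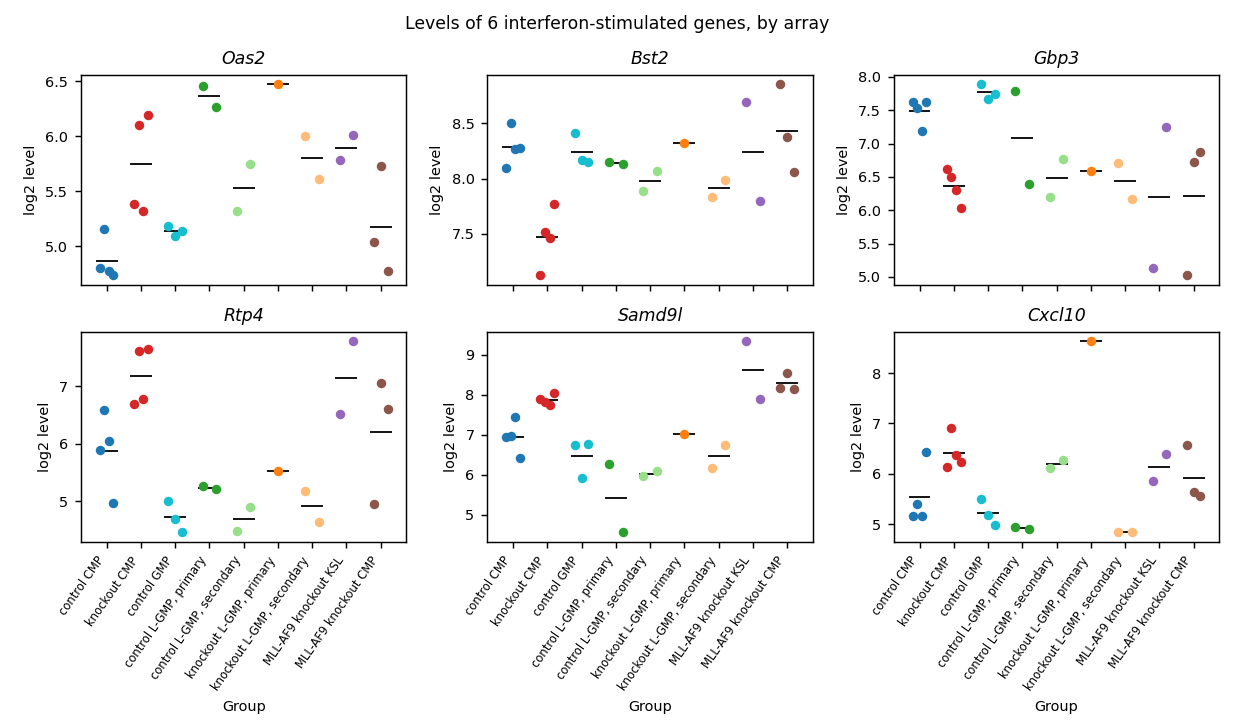
Log2 levels (vertical axes, 1 point per array, line at the group mean) of Oas2, Bst2, Gbp3, Rtp4, Samd9l and Cxcl10 in the 9 groups. Knockout and control CMPs are apart in all panels but that of Cxcl10, where control array 4 at 6.44 lies among the knockout arrays, and the primary knockout L-GMP array stands alone at 8.64 for Cxcl10.

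The cells themselves differed in these CMPs. Of 9 monocyte and macrophage markers 8 fell in the knockout (median difference −3.01, F13a1 4.73 against 9.02), and 4 of 5 granulocyte-monocyte progenitor markers fell (Elane 5.58 against 10.4). The mean deviation of the monocyte list was 0.85 to 1.09 on control arrays and −2.11 to −1.43 on knockout arrays. None of the 6 plasmacytoid dendritic cell markers passed, with Siglech at 4.86 in knockout and 4.83 in control CMPs. What part these cells had in the falls of Bst2, Gbp3, Psmb8 and Psmb9 was not tested. With Xist, a marker of female cells that was high on part of the arrays, as a covariate, 1 member passed.

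Upstream of the members 2 of 21 genes rose and 1 fell in knockout CMPs, and each of these calls held with any 1 array left out. Ifngr2, the signalling subunit of the interferon gamma receptor, averaged 8.57 ± 0.16 (SD, n = 4) in control and 6.22 ± 0.30 (SD, n = 4) in knockout CMPs. Its arrays lay at 8.38 to 8.71 and at 5.80 to 6.45, and the fall was 2.35 ± 0.18, or 5.10-fold (limma adjusted p = 1.89e-06). Ddx58, which encodes the RNA sensor RIG-I, rose by 1.23 ± 0.22 (limma adjusted p = 0.00391) and Jak1 by 0.69 ± 0.12 (limma adjusted p = 0.00262). The other type I receptor and signalling genes, Ifnar1, Ifnar2, Tyk2 and Irf9 among them, did not pass. Of 32 further interferon-induced genes none rose, and Ifi205 (−1.28) and Tor3a (−0.83) fell. With 1 array left out the call for Ifi205 was lost in 6 of 8 refits and that for Tor3a in 8 of 8, and in the fit of the 8 arrays alone Ifi205 had a limma adjusted p of 0.0805.

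In L-GMPs, knockout against control, again 1 member rose and 1 fell, beside 2.1% and 1.16% of all genes. The knockout arrays are of a single leukaemia, from a recipient given vectors for IL-3 and GM-CSF. Genotype, that leukaemia and the vectors cannot be told apart here. Cxcl10 stood at 4.95 and 4.90 in primary and 6.11 and 6.28 in secondary control L-GMPs, and at 8.64 in the primary and 4.85 and 4.84 in the secondary knockout L-GMPs. The rise of 1.18 ± 0.31 (limma adjusted p = 0.0499) came from the primary knockout array, without which the difference was −0.71 (adjusted p = 0.246). Ifit3 was lower in the knockout by 0.66 ± 0.16 (limma adjusted p = 0.0384), at 3.87 to 4.06 against 4.17 to 4.97, a call lost in 5 of 7 refits with 1 array left out. Without primary control L-GMP array 1 the count of members was 5, and without each other array 0 or 1. The share of all genes called in these refits is not given. Of the 35 members 30 had a positive difference, with a median of 0.25, where the median gene had 0.00. Unadjusted p was below 0.05 for 10 members and for 19.2% of all genes. Marker lists separated the same arrays: the stem cell list's mean deviation was −0.75 to −0.21 in control and 0.27 to 0.57 in knockout L-GMPs, and the erythroid list's −1.93 to −1.34 and −1.03 to −0.83. In each list 1 of 4 genes passed, Mecom and Car2, both higher in the knockout. The median difference was −0.11 over the stem cell list and 0.03 over the erythroid list, so these list means do not stand for the typical gene of either list. Their part in the members' shift was not tested. Samd9l (1.01), Dtx3l (0.91), its partner Parp9 (0.66) and Trim30a (0.86) were among those that did not pass. Of the surrounding genes, Lgals3bp rose by 1.60 ± 0.29 and Ly6e by 0.86 ± 0.14 (limma adjusted p = 0.00516 and 0.00339). A limma fit of these 7 arrays alone called no member, and neither Lgals3bp nor Ly6e passed in it (adjusted p = 0.146 and 0.163).

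Whether the knockout effect differed between L-GMPs and CMPs was tested as a difference of differences. All knockout L-GMP arrays are of a single leukaemia, so genotype cannot be told apart from that leukaemia and the IL-3 and GM-CSF vectors. No member passed in either direction, where 2.02% and 0.782% of all genes did. At an unadjusted p below 0.05 there were 6 members, against 16.3% of all genes. They were led in size by Bst2, with a difference of 0.87 ± 0.29 (limma adjusted p = 0.124), and Cmpk2, with 0.86. The largest difference of any member, Rtp4 at −1.05, had an adjusted p of 0.448 in limma. In a fit of the 15 arrays compared alone Bst2 passed with adjusted p = 0.0218. Outside the members, the effect on Ifngr2 differed by 2.79 ± 0.27 (limma adjusted p = 5.18e-05): the gene was low in knockout CMPs, and in knockout L-GMPs it averaged 9.19 against 8.75 in control L-GMPs.

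Control GMPs and CMPs did not differ in any member at the threshold, where 0.717% of all genes were higher and 0.331% lower. At an unadjusted p below 0.05 there was 1 member, against 7.87% of all genes. This was Rtp4, at 5.01, 4.69 and 4.47 in GMPs. All but GMP array 1 lay below the lowest CMP array, 4.97, and the difference was −1.15 ± 0.47 (limma adjusted p = 0.486). Samd9l (−0.47) and the nucleic acid sensor Zbp1 (0.39) came next in size.

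Leukaemic against non-leukaemic MLL-AF9 knockout cells gave 3 members higher and 1 lower in L-GMPs, beside 7.27% and 5.93% of all genes. Samd9l stood at 7.01 in the primary and 6.16 and 6.75 in the secondary L-GMPs, at 9.34 and 7.89 in KSLs and at 8.17, 8.54 and 8.15 in CMPs. No arrays overlapped, and the difference was −1.72 ± 0.38, or 3.30-fold (limma adjusted p = 0.00584). Oas1a stood at 7.71, 7.51 and 7.15 in L-GMPs and between 6.16 and 7.15 in KSLs and CMPs, where the groups all but touched at 7.15, and was higher by 0.93 ± 0.23 (limma adjusted p = 0.0122). Eif2ak2 (0.75 ± 0.22) and Stat2 (0.57 ± 0.14) were also higher (limma adjusted p = 0.0341 and 0.0144). In a fit of these 8 arrays alone none of the 4 passed, with adjusted p from 0.13 to 0.343. The markers moved with them: all 5 granulocyte-monocyte progenitor markers and 7 of 9 monocyte and macrophage markers were higher in L-GMPs, and 3 of 4 erythroid markers lower. Their part in the members' changes was not tested. MLL-AF9 knockout CMPs and KSLs did not differ in any member, where 2.02% of all genes were higher and 1.3% lower in CMPs. At an unadjusted p below 0.05 there were 6, against 20.2% of all genes, and the largest differences were those of Rtp4 (−0.94), Xaf1 (−0.91) and Oasl2 (−0.82). The arrays of the same recipient are paired, and with the recipient as a block Trim30a was lower in CMPs by 0.91 (limma adjusted p = 0.0194). That estimate rests on the recipients that gave both cell types, and in that fit 2.12% of all genes were higher and 1.92% lower. Without the block the difference for Trim30a was −0.53 (limma adjusted p = 0.368).

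Members moved together between arrays of the same group. Control CMP array 2 was the highest of its 4 for 28 of 35 members (80%) and for 30.2% of all genes, and the lowest for no member. Among knockout CMPs, array 3 was the lowest for 23 members (65.7%, against 28.1% of all genes), and arrays 2 and 4 were the highest for 14 and 17. GMP array 1 was the highest for 27 members (77.1%, against 34.8%). Among MLL-AF9 CMPs array 3 was the highest for 25 (71.4%, against 38.8%) and array 1 the lowest for 24 (68.6%, against 34.9%). These are counts over genes of the same array and carry no test.

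**Figure D4:**
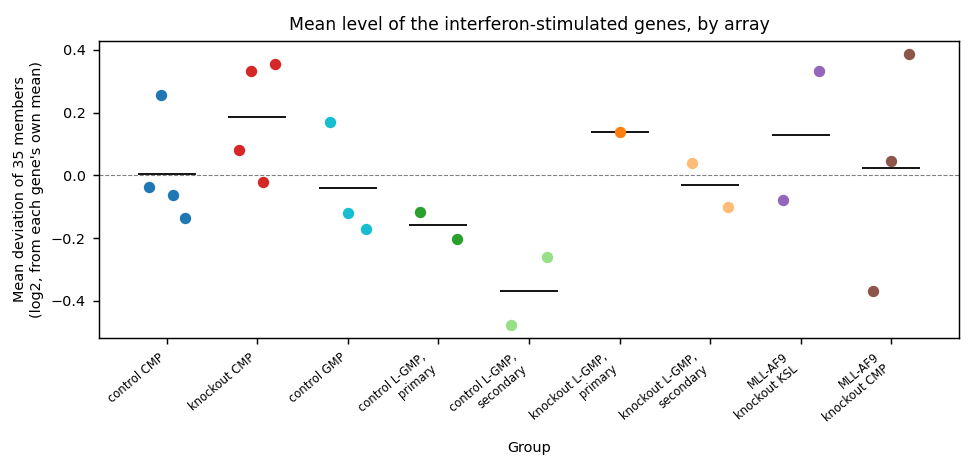
Mean deviation of the 35 members from each gene's own mean over the 23 arrays (vertical axis, log2), with 1 point per array and a line at the group mean, for the 9 groups. MLL-AF9 knockout CMPs spread the most, from −0.37 to 0.39, and all 4 control L-GMP arrays lie below 0.

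The mean deviation of the members from their own averages put numbers on this. It was −0.04, 0.26, −0.06 and −0.13 in control CMPs and 0.08, 0.33, −0.02 and 0.35 in knockout CMPs, so the groups overlapped. It lay between −0.48 and −0.12 on the 4 control L-GMP arrays and at 0.14, 0.04 and −0.10 on the knockout L-GMP arrays. Control CMP array 2 also had the highest erythroid signal of its group, with a list deviation of 1.57 against 0.58 to 1.11. The part of that signal was not tested.

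The recipients without leukaemia that gave both KSLs and CMPs allowed the same mice to be read in both cell types. Members were mostly higher in the mouse of arrays 2 than in the mouse of arrays 1, for 28 of 35 in KSLs and 27 in CMPs. They were higher in both cell types for 22 members and lower in both for 2, where 25.6% and 24.5% of all genes were. The median difference was 0.37 in KSLs and 0.47 in CMPs, and that of all genes was 0.00 in both. Gbp3 stood at 5.14 and 7.25 in the KSLs of these mice and at 5.03 and 6.72 in their CMPs, a gap of 2.11 and 1.70. Irgm1 differed by 1.54 and 1.01, and Rtp4 by 1.27 and 2.10. Bst2 went the other way in both, by −0.90 and −0.48. With 1 array per mouse and cell type there is no test. Some marker lists differed in the same direction and others in the opposite one. From the first mouse to the second, the mean deviation of the erythroid list went from −0.39 to 1.71 in KSLs and from 0.18 to 2.10 in CMPs. That of the stem cell list went from −0.33 to 0.93 and from −0.73 to 0.93. The list of plasmacytoid dendritic cells, which are strong producers of interferon, went from 0.51 to 1.48 and from −0.31 to 0.97. Going the other way, the sort-gate list went from 0.33 to −1.02 in KSLs and from −0.78 to −1.32 in CMPs. The mature neutrophil list went from −0.405 to −0.95 and from −0.60 to −0.92. On MLL-AF9 CMP array 3 the members' mean deviation was 0.39, and that of the plasmacytoid list was −0.35. The part of any of these cells was not tested.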

How the data were processed

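Per the labels' protocols, RNA from the sorted cells was amplified by NuGen Ovation Pico chemistry before hybridisation to 23 Affymetrix arrays. The authors deposited log2 values for 34760 probe sets, and the submitters' processing notes name RMA without a version. RMA equalises the arrays' distributions and compresses changes of dim genes, and levels compare within a gene, not between genes. Probe sets with 1 symbol gave 19937 genes (highest mean probe set). Means of the 9 groups were estimated in limma 3.58.1 (R 4.3.3), with a trend in the prior variance and Benjamini-Hochberg adjustment over all genes, groups weighted equally, and was tested on simulated data. In each comparison up to 8 members each way with adjusted p below 0.05 were named, or the 3 largest differences where fewer than 3 passed, and up to 6 surrounding genes that passed. Other members named, such as those whose arrays did not overlap, were chosen after their values were seen. The members and gene lists were chosen with earlier results of these data known. The number of arrays limits the precision. Same-numbered knockout and control CMP arrays did not deviate together (correlations from −0.21 to 0.08), and those of MLL-AF9 KSLs and CMPs share a recipient (0.45 and 0.26). The alternatives were array weights, the compared arrays alone, centred arrays, a filter at a mean of 5, means of probe sets, robust moderation, replicate blocks, Xist, other weightings of the groups, and each array left out.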

Additional observations from a re-analysis of the deposited data

Results flagged for a closer look

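In the groups of 4 arrays, each member was checked for an array far from the others by Dixon's ratio, and 2 of 70 checks were past it, where chance gives about 1 in 20. Both concerned control CMP array 2: Oas2 stood at 5.16 there against 4.74 to 4.80 on the other control arrays, and Ifih1, the sensor MDA5, at 6.97 against 6.32 to 6.38. Without that array the knockout minus control comparison called 1 member. No member's knockout effect differed between L-GMPs and CMPs at the threshold, but the tested difference passed for 3 surrounding genes (limma, adjusted over all genes): Ifngr2, by 2.79, Lgals3bp, by 1.79 (adjusted p = 0.0187), and Ly6e, by 1.01 (adjusted p = 0.00843). Lgals3bp and Ly6e differed by −0.19 and −0.15 in CMPs, and both rose in L-GMPs. All knockout L-GMP arrays trace back to a single leukaemia.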

How the results depend on the processing

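Knockout minus control CMPs (2) gave 11 with array weights, 8 on these arrays alone, 4 with genes of a mean of at least 5, and 1 with Xist. On these arrays alone 7.42% of all genes were higher and 8.73% lower. Each array left out gave 0 to 1. A replicate block gave 2, beside 1.58% of all genes higher and 1.87% lower. Knockout against MLL-AF9 knockout CMPs (1) gave 0 with array weights or alone, 2 with centred arrays or robust moderation, 3 with the filter, and 1 to 4 with each array left out. Knockout minus control L-GMPs (2) gave 1 with array weights or means of probe sets, 0 alone and 0 to 5 with each array left out, where Cxcl10 ranged from −0.71, reversed, to 1.22. The difference of knockout effects (0) gave 1 with array weights, 3 alone and 0 to 1 with each array left out. L-GMPs against non-leukaemic knockout cells (4) gave 1 with array weights, 0 alone and 3 to 6 with each array left out. MLL-AF9 CMPs against KSLs (0) gave 1 with the replicate block, where recipients pair the arrays, and 0 to 1 with each array left out. The poly I:C comparison (11) gave 9 to 17 and GMPs against L-GMPs (7) 1 to 9 with each array left out; GMPs against CMPs gave 0 with the block. The causes were not tested. For most settings, and for the refits with an array left out described above, the share of all genes called is not given. The counts given here alone therefore do not tell a change common to all genes apart from a change in the members. The poly I:C comparison already uses all arrays, so a fit of the compared arrays alone was not made. The replicate numbers of control and knockout CMPs, and of GMPs and CMPs, are not stated to mark shared mice.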
